A study of Mus musculus with 2 samples.

Results

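Axon guidance genes encode the signals and receptors that steer growing axons and, in the adult brain, act on synapses and wiring. They were taken from the deposited gene table by symbol alone: semaphorins, plexins, neuropilins, ephrins, Eph receptors, slits, robos, netrins, netrin-Gs, UNC5 receptors and Dcc, each with signal in at least 1 library. This gave 73 of 31053 rows, of which 70 are protein-coding genes and 3 are antisense RNA genes (Plxna4os1, Plxna4os2 and Plxna4os3) whose symbols begin like a plexin. The study profiled single nuclei from male mice, taken from the medial prefrontal cortex at zeitgeber time 20 in a cycle with 12 h of light. Zeitgeber time 20 lies in the dark phase. One group was labelled knockout for Npas2, a clock transcription factor, and the other wild-type littermate, and per the labels tissue from 4 mice of a genotype was pooled into 1 library. The allele, the strain and the age are not given in the labels, and no other treatment separates the groups.

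Semaphorins signal through plexins, with neuropilins as co-receptors of the secreted class. Ephrins are bound to the membrane and signal in both directions with Eph receptor tyrosine kinases. Slits are secreted ligands of robo receptors, and netrins are secreted ligands of DCC and the UNC5 receptors, whereas netrin-Gs are anchored to the membrane and bind the LRRC4 family. In the mature cortex these molecules are known for roles in spine turnover, synapse specificity and oligodendrocyte biology.

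NPAS2 pairs with BMAL1 and binds the E-box, canonically CACGTG, so the sequence around the starts of these genes was searched for that motif, which reads the same on both strands. RefSeq windows of 300 bases (250 before and 50 after a start, GRCm38.p6) were found for 60 of the 73 members, 76 windows in all. The motif was in 5 of the 76 windows (6.58%), against 7.15% of all 32851 windows. The related CACGTT (or AACGTG on the other strand) was in 0 of the member windows and in 4.68% of all windows. The 5 windows belonged to Sema6d, Robo2, Sema3e, Sema4b and Epha8, with the first base of the motif at -23, -18, 24, -102 and -148 from the start. The sequences below show where the motif lies in the 4 of these genes whose level passed the floor used for ratios. Robo2, Sema6d and Sema4b also have windows at other starts, and the motif was in none of those. The first lines give the 250 bases before the start with the motif in Robo2 (chr16:75447294-75447543, minus strand) and Sema6d (chr2:124089719-124089968, plus strand), which overlap no annotated exon. The last lines give 30 bases around the motif in Sema3e (chr5:14025287-14025316, plus strand) and Sema4b (chr7:80198474-80198503, plus strand). Capitals mark the motif, and a match is a match of letters, with no binding measured here.
Robo2: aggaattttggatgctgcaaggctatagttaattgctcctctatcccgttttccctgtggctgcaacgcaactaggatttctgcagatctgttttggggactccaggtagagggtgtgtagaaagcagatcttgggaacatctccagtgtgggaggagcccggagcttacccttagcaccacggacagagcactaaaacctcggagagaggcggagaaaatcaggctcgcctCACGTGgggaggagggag
Sema6d: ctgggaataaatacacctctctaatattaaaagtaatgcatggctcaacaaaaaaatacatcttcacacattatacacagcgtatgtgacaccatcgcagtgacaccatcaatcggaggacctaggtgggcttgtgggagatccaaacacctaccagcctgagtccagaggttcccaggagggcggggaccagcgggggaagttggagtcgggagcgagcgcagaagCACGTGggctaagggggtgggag
Sema3e: gatgcggcgaggCACGTGggctggagacac
Sema4b: ggtgcggcggccCACGTGaccaccttccct

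The level of a gene is its share of the counts of a nucleus, scaled to 10000 and averaged over all nuclei of a library or cluster. The library labelled wild-type held 5578 nuclei at an estimated mean depth of 4034 UMIs (unique molecular identifiers, counted molecules), and the library labelled knockout held 7161 at 3276. Parentheses after a value give its 95% counting interval, computed from estimated UMI numbers. They cover counting error only. With 1 library per genotype no difference has a replicate check, and none could be tested. The targeted gene does not check the labels: the Npas2 level was 1.29 under the wild-type label and 1.39 under the knockout label, a ratio of 1.08 (1.02 to 1.14), and the labels do not say whether a 3' tag lies outside the deleted stretch. The libraries also differed in makeup. All 6 astrocyte markers, 7 oligodendrocyte markers, 6 oligodendrocyte precursor markers and 6 microglia markers were lower in the library labelled knockout, with summed levels of 4.53 against 2.33, 7.63 against 2.45, 1.38 against 0.495 and 3.37 against 2.09. Of the 6 endothelial and mural markers 5 were lower (sum 0.242 against 0.105), as were 10 of 12 markers of striatal spiny projection neurons (sum 22.2 against 21.7, median log2 ratio -1.73). Markers of olfactory bulb neurons and neuroblasts went the other way, with 9 of 10 higher (sum 8.34 against 12.9), and none of these markers was at 0 in both libraries. All 3 Vip markers (sum 6.44 against 9.73) and all 5 layer 5 markers (2.50 against 3.13) were higher, and all 4 upper layer markers (3.69 against 3.23) were lower. The excitatory, layer 6, inhibitory, Pvalb, Sst and Lamp5 lists held markers in both directions. A library's level averages over all its nuclei, so it mixes how many nuclei of a type there are with the level in each of them.

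Of the 57 guidance genes whose ratio was read, 10 were at least 1.5-fold apart between the libraries, 7 of them higher under the knockout label. The levels of all members summed to 91.1 under the wild-type label and 97.8 under the knockout label. Ratios (knockout label over wild-type label, log2 with a pseudocount of 0.01) were read for the 57 members whose mean level over the libraries reached 0.0461, the median of all genes above 0. Of these, 32 had a ratio above 1 and 25 below, where 40.8% of the 12003 genes above that floor were above 1 and 59.2% below. Their median log2 ratio was 0.02 against -0.06 for all genes, and it turned to -0.02 both without the floor and when mitochondrial genes and Malat1 were left out of the scaling. At least 2-fold higher was 1 member (1.75% of the 57, against 0.567% of all genes), and at least 2-fold lower were 2 (3.51% against 2.37% of all genes). In either direction that makes 3 members, 5.26% against 2.93% of all genes. At 1.5-fold, 7 members were higher (12.3% against 2.92%) and 3 lower (5.26% against 6.91%), together 10 members or 17.5% against 9.82% of all genes. These shares describe 1 library per genotype and were not tested. The members at least 1.5-fold higher were Sema3c, Sema3e, Efnb1, Epha3, Epha5, Robo3 and Ntn4. Those at least 1.5-fold lower were Plxnb3, Ntn1 and Ephb1. The 16 members below the floor had means of at most 0.0445, and 12 of them were lower and 4 higher, where 58.3% of all genes below the floor and above 0 were lower.

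**Figure D1:**
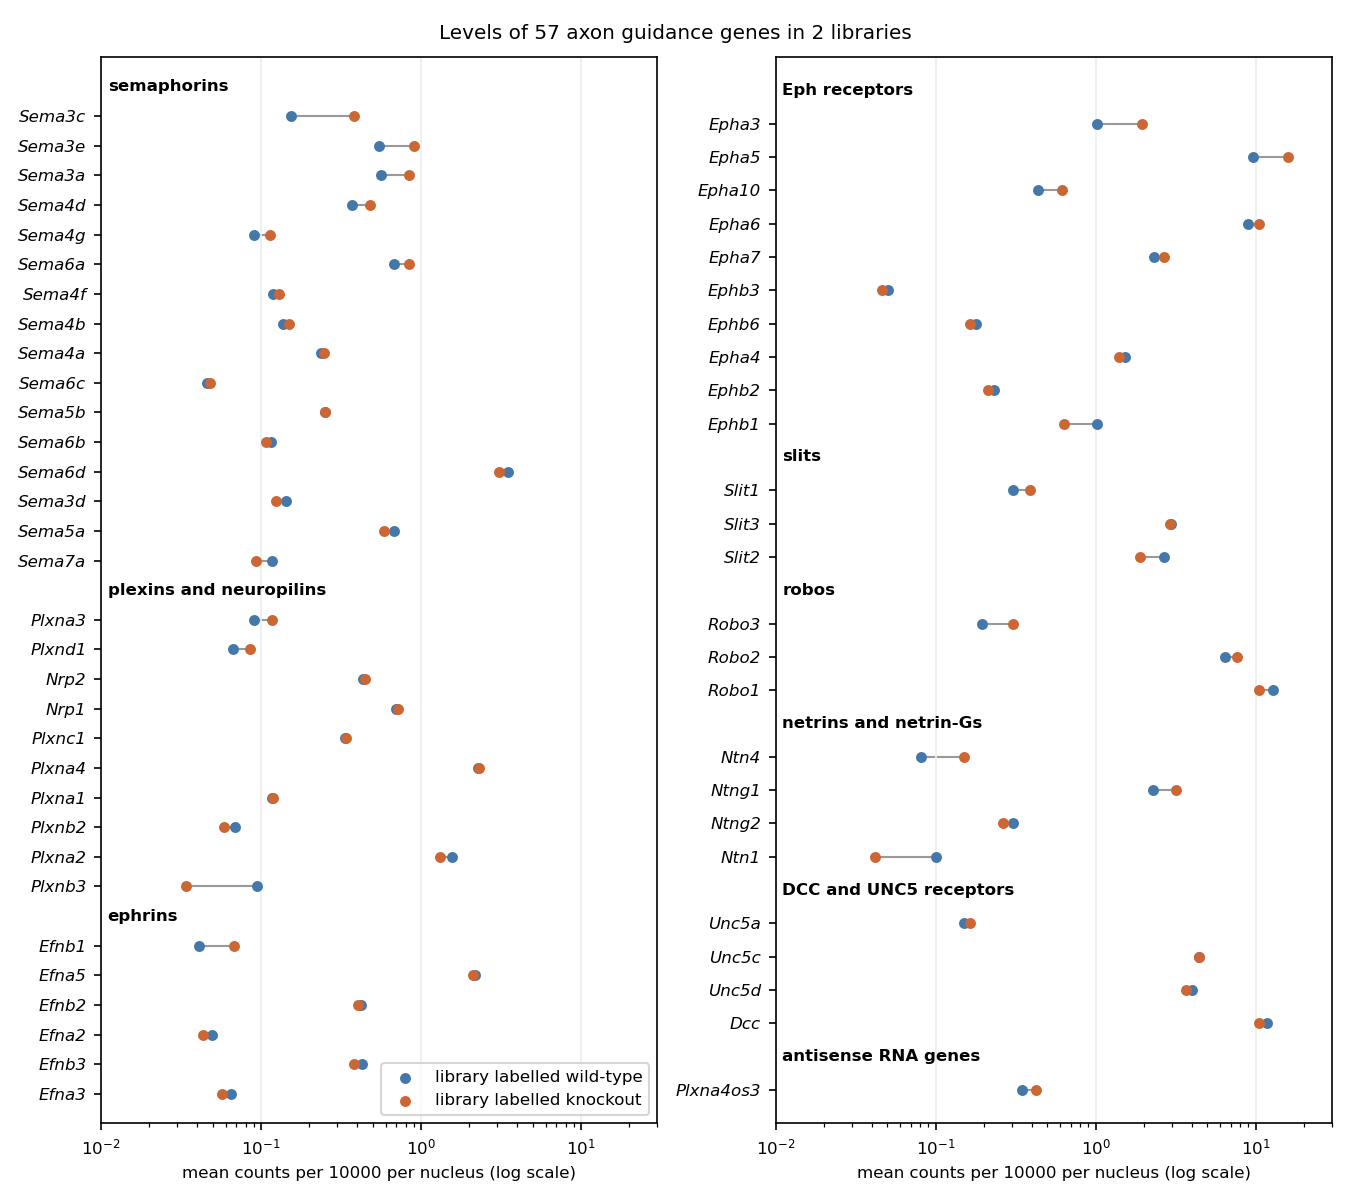
Level of each of the 57 guidance genes above the floor (mean counts per 10000 counts of a nucleus, log axis) in the library labelled wild-type (blue) and the library labelled knockout (orange), 1 library each, with a line joining both. Most pairs nearly coincide, and the widest gaps are those of Sema3c (0.154 and 0.380), Plxnb3 (0.0940 and 0.0341) and Ntn1 (0.101 and 0.0417).

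Nuclear libraries capture much unspliced RNA, and levels followed gene length: Spearman's rho between level and gene span was 0.82 across the 57 members and 0.45 across 11995 genes with a length, a description over genes of the same libraries. Per 100 kb of gene span (GENCODE M21, mm10), members ranged from 0.0372 (Ntn1) to 6.62 (Efnb3), with a median of 0.487. On that per-length scale Epha5 (3.54), Plxna4os3 (3.03), Epha7 (1.62) and Robo1 (1.58) followed Efnb3, and Epha10 (1.43) and Robo3 (1.42) came next. The gene of Efnb3 spans 6.11 kb. Genes introduced below as having the most signal of their subfamily are those with the highest deposited level, which follows gene length and does not rank abundance.

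Clusters are the authors' 23 numbered clusters, which pool both libraries and carry no names in the deposited table, so they are described by fixed marker lists (raised means 2-fold or more over the median cluster at a mean of 0.05 or more). Clusters 20, 21 and 22 held 52, 37 and 20 nuclei, so their values are the least precise. Of the 57 members, 28 had a highest cluster at least 4-fold over the median cluster, against 3010 of 12001 genes (25.1%). When clusters 20 to 22 were left out 23 members did, and the share of all genes was not computed for that setting. The members did not gather in 1 cluster: cluster 9 and clusters 19 and 20 were each the highest for 6 of the 57 members, cluster 17 for 5, and clusters 4 and 22 for 4. Among all genes above the floor, 3.77% were highest in cluster 9, 5.27% in cluster 19 and 4.58% in cluster 20. For clusters 17, 4 and 22 these shares were 3.33%, 2.18% and 20.7%. Leaving out clusters 20 to 22 changed the highest cluster of 11 members.

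**Figure D2:**
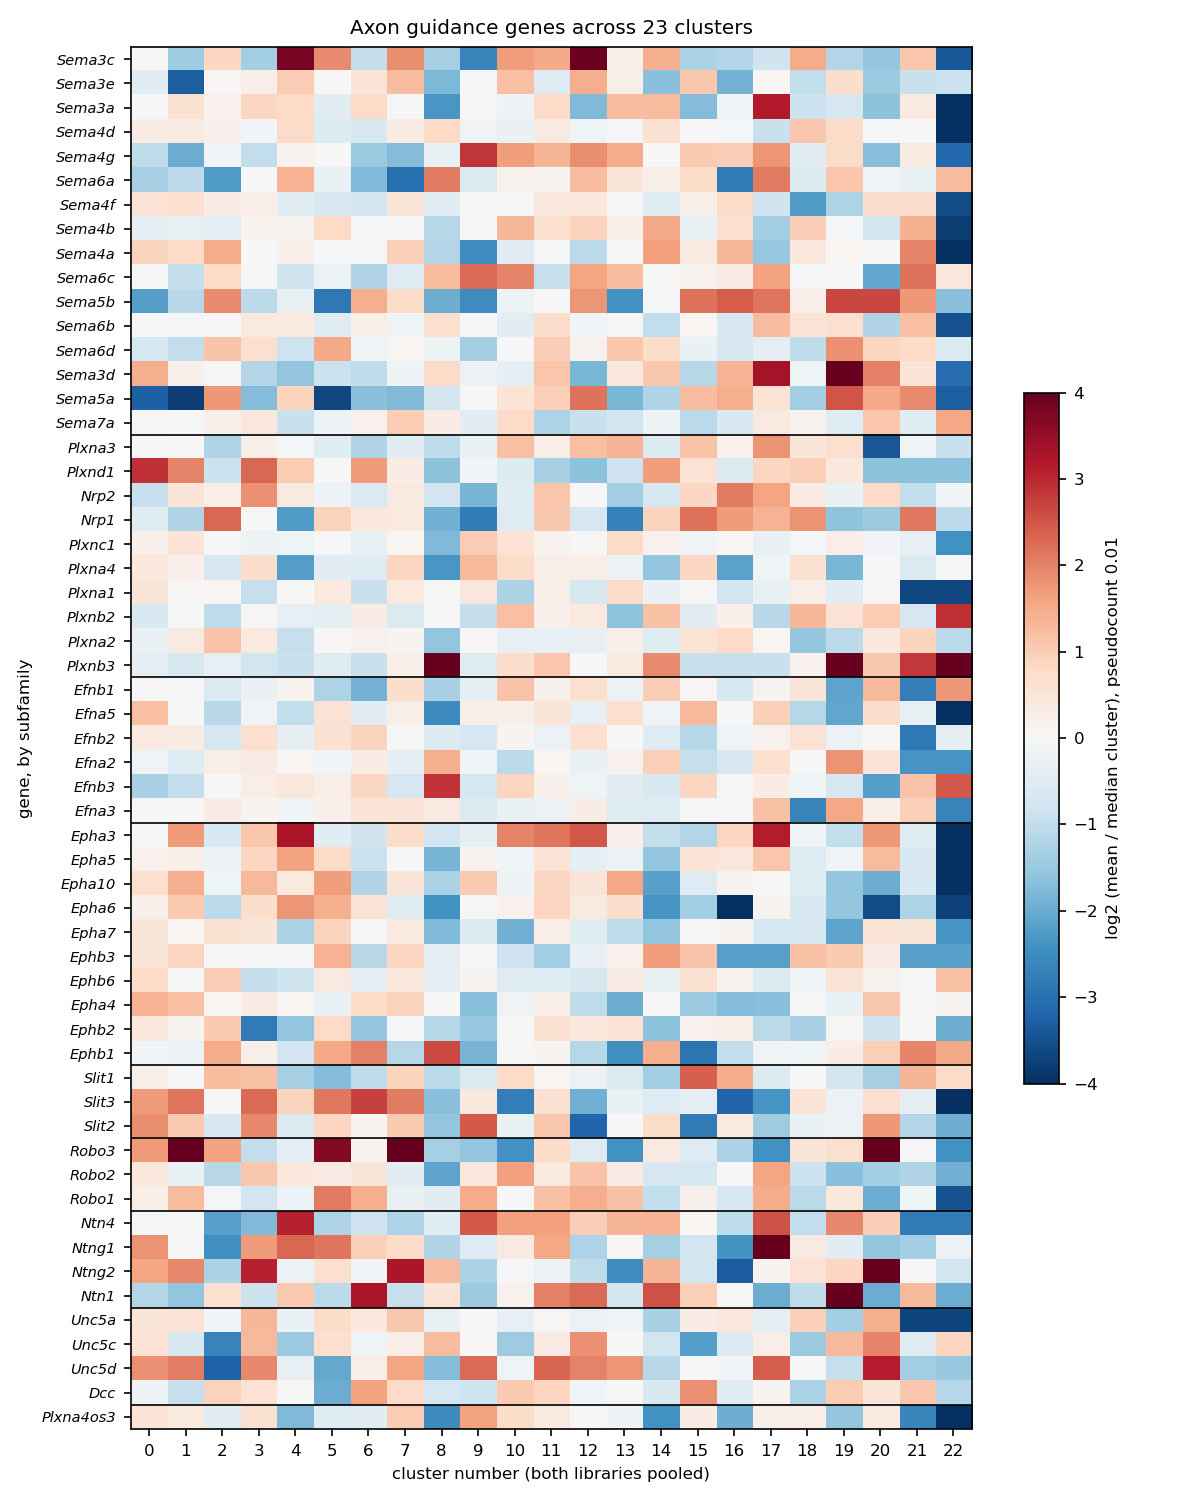
Heat map of 57 guidance genes (rows, ordered by subfamily, black lines between subfamilies) over the 23 clusters (columns, both libraries pooled), coloured by the log2 ratio of the cluster mean over the gene's median cluster with a pseudocount of 0.01, the colour scale ending at -4 and 4. Dark red cells stand for single clusters far above the rest, such as Ntng1 in cluster 17, Ntng2 in cluster 20 and Plxnb3 in cluster 8.

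Among the semaphorins, 16 of 20 passed the floor, 11 higher and 5 lower in the library labelled knockout, with a median log2 ratio of 0.08 that stayed above 0 in all 6 alternatives run. The widest differences were in the secreted class 3, whose members are read by neuropilins and plexins. Sema3c (chromosome 5, 17574281 to 17730268, plus strand, mm10), a ligand known for attracting cortical axons, had levels of 0.154 (wild-type label) and 0.380 (knockout label), the order kept below. It was 2.46-fold higher (2.09 to 2.90), the only member past 2-fold upward. Sema3e (chromosome 5, 14025276 to 14256689), a ligand that binds Plxnd1 without a neuropilin, had levels of 0.548 and 0.904, 1.65-fold higher (1.51 to 1.80). Sema3a, the classical repellent of cortical axons, had levels of 0.564 and 0.836, 1.48-fold higher (1.36 to 1.61).

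Clusters 4, 10 and 17 together held 44.7% of the signal of Sema3c, 23.1% of Sema3e and 22.7% of Sema3a. Sema3c was highest in cluster 12 at 1.59 (1.34 to 1.87) and cluster 4 at 1.46 (1.29 to 1.65), against a median cluster of 0.0947, and cluster 4 held 40.5% of its signal. In cluster 12 all 6 inhibitory markers, 3 of 3 Vip markers and 3 of 3 Lamp5 markers were raised, and in cluster 4 all 6 inhibitory markers and 8 of 10 markers of olfactory bulb neurons and neuroblasts. Sema3a was highest in cluster 17, at 4.80 (4.17 to 5.50) against 1.28 in the next cluster. In cluster 17 all 5 mitral or tufted cell markers were raised. Sema3e was spread more evenly, from 1.86 in cluster 12 down to 0.0595 in cluster 1.

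The membrane-bound Sema6d and Sema6a had the most signal of the family. Sema6d had levels of 3.50 and 3.07 and Sema6a of 0.675 and 0.842. Per 100 kb of gene these 2 genes were nearly level, at a mean of 0.568 and 0.569. Sema6d was highest in cluster 19 at 9.64 (8.62 to 10.7), where 6 of 6 oligodendrocyte precursor markers and 7 of 7 oligodendrocyte markers were raised. Cluster 19 was the highest also for Sema3d, at 2.15 (1.68 to 2.70), 29.3-fold over its median cluster, and for Sema5a, at 3.33, 5.84-fold over its median cluster. Sema6a was shared between cluster 17 at 3.16 (2.66 to 3.74) and cluster 8 at 3.12 (2.70 to 3.59), the cluster in which 7 of 7 oligodendrocyte markers were raised. Of the other semaphorins at least 4-fold over the median cluster, Sema4g (8.01-fold) and Sema6c (6.04-fold) were highest in cluster 9, Sema5b (6.75-fold) in cluster 20 and Sema4a (4.02-fold) in cluster 21. Clusters 20 and 21 rest on 52 and 37 nuclei, and the mean level of Sema6c, 0.0469, lay just above the floor of 0.0461.

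Among plexins and neuropilins, 10 of 11 passed the floor, 7 higher and 3 lower, with a median log2 ratio of 0.03 that turned to -0.02 after the ratio expected from nuclei was subtracted. Plxna4 and Plxna2, receptors of class 6 semaphorins and with neuropilins of class 3, had the most signal. Plxna4 had levels of 2.26 and 2.30 (ratio 1.02, 0.974 to 1.06), and Plxna2 of 1.55 and 1.32, 1.18-fold lower (1.12 to 1.25). Nrp1 had levels of 0.698 and 0.713 and Nrp2 of 0.436 and 0.448, with intervals of the ratio of 0.941 to 1.11 and 0.930 to 1.14 that include 1. Nrp1 was highest in cluster 2 at 2.52 (2.36 to 2.70), which held 33.2% of its signal and in which 4 of 6 layer 6 markers were raised. Nrp2 was highest in cluster 16 at 1.45 (1.21 to 1.72), in which 6 of 6 layer 6 markers were raised. Plxnd1 was highest in cluster 0 at 0.225 (0.190 to 0.264), which held 42.3% of its signal.

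Plxnb3, a receptor of Sema5a known from oligodendrocytes, was the furthest apart of the 10 plexins and neuropilins above the floor. Plxnb3 (chromosome X, 73757090 to 73772514, plus strand, mm10) had levels of 0.0940 and 0.0341, 2.76-fold lower in the library labelled knockout (1.85 to 4.18). Its level in cluster 8 was 1.16 (0.913 to 1.46) against 0.00843 in the median cluster, 138-fold, and cluster 8 held 71.8% of its signal. Clusters 8, 14, 18 and 19, in which glial or vascular markers were raised, together held 89.9%. By the estimate of nuclei these 4 clusters made up 14.1% of the library labelled wild-type and 4.67% of that labelled knockout. When the estimate used only genes listed in 1 cluster, these shares were 13.1% and 5.44%. Plxnb1, a receptor of Sema4d and the plexin just below the floor, had levels of 0.0644 and 0.0212, and the same 4 clusters held 61.0% of its signal. Plxnb2, highest in cluster 22 at 0.572, rests there on 20 nuclei.

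Among ephrins, 6 of 8 passed the floor, 1 higher and 5 lower, with a median log2 ratio of -0.12 and a mean of 0.004. Efna5, a GPI-anchored ligand of EphA receptors, and Efnb2, a transmembrane ligand of EphB receptors, had the most signal. Efna5 had levels of 2.17 and 2.11 and Efnb2 of 0.424 and 0.402, with intervals of the ratio of 0.932 to 1.02 and 0.854 to 1.05 that include 1. The ephrin that was higher was Efnb1 (chromosome X, 99136130 to 99148991), with low levels of 0.0409 and 0.0681, 1.67-fold higher (1.20 to 2.32). Efnb3, known as a myelin-borne inhibitor of axon growth, was highest in cluster 8 at 2.57 (2.19 to 2.99), 7.67-fold over its median cluster. Its levels were 0.427 and 0.382, a ratio of 0.893 (0.790 to 1.01). Efna2, highest in cluster 19 at 0.168 (0.0597 to 0.374), was 4.02-fold over its median cluster there. The intervals overlap, as the median cluster was at 0.0419 (0.000983 to 0.237).

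Among Eph receptors, 10 of 14 passed the floor, 5 higher and 5 lower, with a median log2 ratio of 0.05 that turned to -0.11 without the floor. Epha5 and Epha6 had the most signal, and both belong to the EphA group that binds GPI-anchored ephrins. Epha5 (chromosome 5, 84054761 to 84417382, minus strand) had levels of 9.68 and 15.99, 1.65-fold higher (1.62 to 1.68). Epha6 had levels of 8.90 and 10.5, 1.18-fold higher (1.15 to 1.20). Epha3 (chromosome 16, 63543534 to 63864175, minus strand) had levels of 1.02 and 1.94, 1.90-fold higher (1.79 to 2.02). All of these 3 receptors were highest in cluster 4: Epha5 at 32.0 (31.1 to 32.8), Epha6 at 23.6 (22.9 to 24.4) and Epha3 at 5.99 (5.64 to 6.36). Cluster 4 was estimated at 3.32% of the nuclei of the library labelled wild-type and 11.3% of that labelled knockout. When the estimate used only genes listed in 1 cluster, these shares were 5.28% and 9.76%.

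Ephb1, a receptor of ephrin-Bs, went the other way. Ephb1 (chromosome 9, 101922128 to 102354693, minus strand) had levels of 1.02 and 0.630, 1.62-fold lower (1.498 to 1.76). It was highest in cluster 8 at 3.35 (2.91 to 3.83), and next in cluster 6 at 2.14 (1.94 to 2.35). In cluster 6 all 12 markers of striatal spiny projection neurons were raised. Cluster 6 was estimated at 10.4% of the nuclei of the library labelled wild-type and 1.42% of that labelled knockout.

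All 3 slits passed the floor, 1 higher and 2 lower. Slit2 (chromosome 5, 47983138 to 48307733, plus strand) had levels of 2.68 and 1.90, 1.41-fold lower (1.35 to 1.47). Slit3 had levels of 2.97 and 2.93, a ratio of 0.984 (0.949 to 1.02), and its log2 ratio of -0.02 turned to 0.04 when the median of all genes was set to 0. Slit1 had levels of 0.303 and 0.388, 1.28-fold higher (1.14 to 1.43). Each slit had a different highest cluster. Slit2 was highest in cluster 9 at 6.44 (6.00 to 6.91), where 3 of 3 Pvalb markers and 6 of 6 inhibitory markers were raised. Slit3 was highest in cluster 6 at 7.20 (6.84 to 7.58). Slit1 was highest in cluster 15 at 1.49 (1.19 to 1.85), where 4 of 6 layer 6 markers and 3 of 5 layer 5 markers were raised.

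Of the 4 robos 3 passed the floor. Robo1 (chromosome 16, 72308306 to 73046095) had levels of 12.8 and 10.5, 1.21-fold lower (1.19 to 1.24), and Robo2 levels of 6.43 and 7.67, 1.19-fold higher (1.16 to 1.22). Robo1 was highest in cluster 5 at 30.2 (29.5 to 30.8), where 4 of 5 layer 5 markers were raised. Robo2 was highest in cluster 10 at 18.1 (17.1 to 19.1) and close to that in cluster 17 at 17.4 (16.2 to 18.7), with overlapping intervals. In cluster 10, 9 of 10 markers of olfactory bulb neurons and neuroblasts were raised.

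Robo3, known from hindbrain and spinal commissural axons, had levels of 0.196 and 0.303, 1.55-fold higher (1.37 to 1.75). Robo3 (chromosome 9, 37415669 to 37433246, minus strand) spans only 17.6 kb. It was high in few clusters: cluster 20 at 1.26 (0.821 to 1.84), cluster 1 at 0.916 (0.839 to 0.997), cluster 7 at 0.889 (0.760 to 1.03) and cluster 5 at 0.672 (0.582 to 0.771), against 0.0434 in the median cluster. Cluster 1, in which 3 of 4 upper layer markers were raised, held 44.1% of its signal. By fold over the median cluster Robo3 ranked 4 among all genes in cluster 1 and 3 in cluster 7.

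Of 5 netrins and netrin-Gs 4 passed the floor, 2 higher and 2 lower. The netrin-Gs had the most signal, and each peaked in 1 cluster. Ntng1 (chromosome 3, 109780040 to 110144011, minus strand) reached 31.2 (29.5 to 32.9) in cluster 17, against 5.62 (5.28 to 5.97) in the next cluster and 1.12 in the median cluster. Ntng2 (chromosome 2, 29194541 to 29253005, minus strand) reached 5.56 (4.59 to 6.67) in cluster 20, against 0.944 (0.811 to 1.09) in the next cluster and 0.0908 in the median cluster. In cluster 20, which rests on 52 nuclei, 4 of 6 excitatory markers were raised. Between the libraries Ntng1 had levels of 2.27 and 3.20, 1.41-fold higher (1.35 to 1.47), and Ntng2 of 0.303 and 0.264, 1.15-fold lower (1.02 to 1.29).

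The secreted netrins were low per length, at 0.0372 (Ntn1) and 0.108 (Ntn4) per 100 kb. Ntn1 (chromosome 11, 68209364 to 68400823, minus strand), the classical ligand of DCC, had levels of 0.101 and 0.0417, 2.42-fold lower (1.77 to 3.34). It was highest in cluster 19 at 0.839 (0.559 to 1.21) and cluster 6 at 0.372 (0.292 to 0.465), and cluster 6 held 29.5% and clusters 8, 14, 18 and 19 another 28.1% of its signal. Ntn4 (chromosome 10, 93640681 to 93747207, plus strand), a netrin that binds laminins, had levels of 0.0812 and 0.150, 1.85-fold higher (1.46 to 2.35). It was highest in cluster 4 at 0.583 (0.477 to 0.705), which held 37.9% of its signal. Both secreted netrins above the floor thus had signal in clusters whose estimated share of nuclei differed between the libraries, and the part of that difference in these ratios was not tested.

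Of 5 DCC and UNC5 receptors, which bind netrins, 4 passed the floor, 2 higher and 2 lower. The fifth, Unc5b, lay just below the floor with levels of 0.0619 and 0.0271, and clusters 8, 14, 18 and 19 held 50.8% of its signal. Dcc had levels of 11.7 and 10.4, 1.12-fold lower (1.10 to 1.15), and Unc5c of 4.40 and 4.44, a ratio of 1.01 (0.976 to 1.04). Dcc was highest in cluster 15 at 31.8 (30.4 to 33.4) and next in cluster 6 at 27.5 (26.8 to 28.2). Unc5c was highest in cluster 20 at 14.7 (13.1 to 16.5) and cluster 12 at 13.3 (12.6 to 14.1), with overlapping intervals. Unc5d was highest in cluster 20 at 13.8 (12.2 to 15.5), 8.84-fold over its median cluster, with levels of 4.01 and 3.68.

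**Figure D3:**
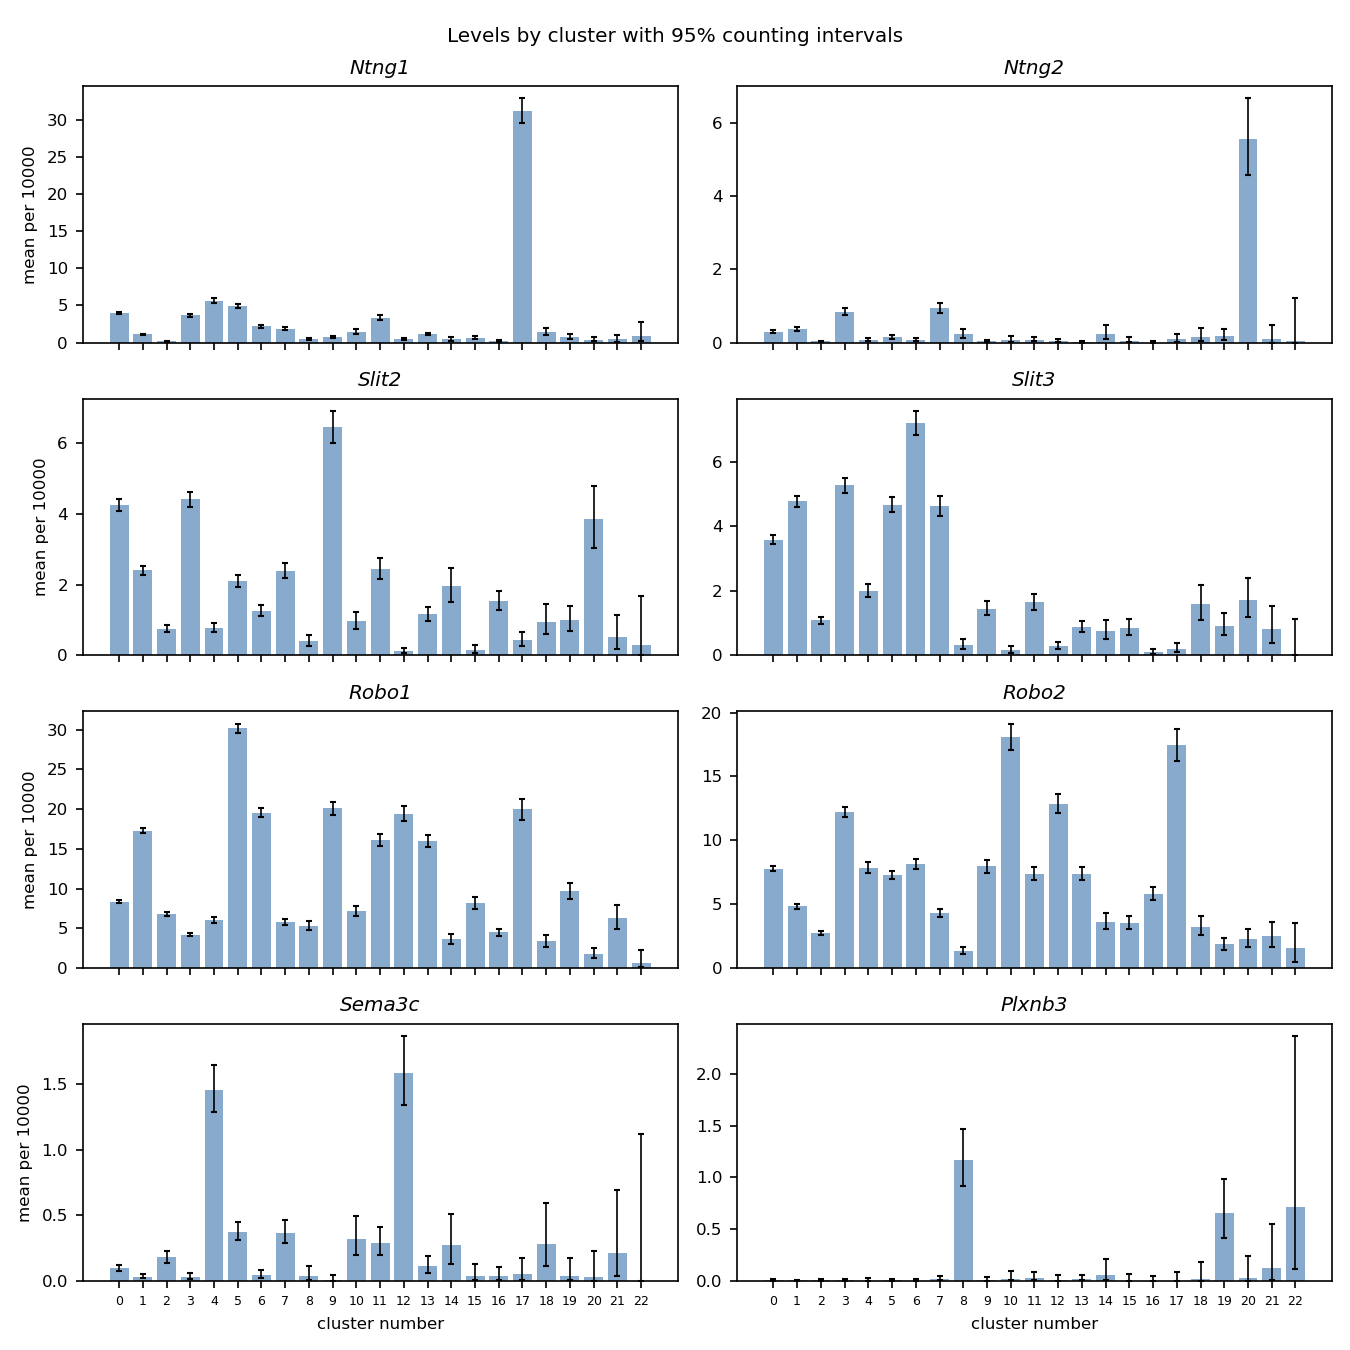
Mean level per cluster (bars, mean counts per 10000 counts of a nucleus, both libraries pooled, clusters 0 to 22 on the x axis, each panel with its own y axis) of 8 guidance genes, with 95% counting intervals as error bars. Ntng1 peaks at 31.2 in cluster 17 and Ntng2 at 5.56 in cluster 20, whereas Slit2, Slit3, Robo1 and Robo2 are spread over many clusters.

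Ligands and receptors were set side by side for 41 known pairs, of which 37 had both genes above the floor. Many pairs share a receptor or a ligand, so they are not independent of each other. Ntn1 was highest in cluster 19, at 0.839, where Dcc was at 18.1. Slit2 was highest in cluster 9, where Robo1 was at 20.1 and Robo2 at 7.95. Sema3e was highest in cluster 12, where Plxnd1 was at 0 (0 to 0.0403), an interval that includes the Plxnd1 median cluster value of 0.0212. Ntng1 was highest in cluster 17, where its partner Lrrc4c was at 14.6, and Lrrc4c itself was highest in cluster 19 at 60.8. Across the 23 clusters, which share their genes' libraries, Spearman's rho was 0.61 for Efna5 and Epha5, 0.52 for Ntn1 and Dcc, and -0.51 for Sema6a and Plxna2. These are the highest and lowest values of the 41 pairs, picked for that. Other pairs lay near 0, such as Slit1 and Robo2 at -0.007 and Efnb2 and Ephb2 at -0.003.

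Members were also counted by the clusters that held their signal. The cluster means pool both libraries, so a gene's own difference between the libraries moves its share of signal there, and these counts are only a description. Of the 57 members 11 had at least 20% of their signal in clusters 4, 10 and 17, and all 11 were higher in the library labelled knockout, where 66.4% of the 855 genes with such signal were higher. These were Epha3, Epha5, Epha6, Ntn4, Ntng1, Robo2, Sema3a, Sema3c, Sema3e, Sema4g and Sema6a. The 3 clusters were estimated at 7.17% of the nuclei of the library labelled wild-type and 17.2% of that labelled knockout, or at 9.13% and 15.7% from genes listed in 1 cluster only. Another 7 members had at least 20% in clusters 8, 14, 18 and 19, of which 6 were lower, where 93.1% of 1055 genes were lower. These 6 were Efna2, Efnb3, Ephb1, Ntn1, Plxnb3 and Sema3d, and Sema6a, which counts in both groups, was the one that was higher.

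A log2 ratio expected from the nuclei alone was computed by weighting each gene's pooled cluster means with the estimated nuclei per cluster and library, a step added after the data were seen. Because the pooled means contain the gene's own change, this value takes up part of any change inside clusters. Across the 57 members the observed and expected values had a Pearson correlation of 0.83, as a description, 44 shared a sign and 34 lay within 0.2 of each other. Plxnb3 was observed at -1.24 and expected at -1.24, Epha6 at 0.24 and 0.26, Dcc at -0.17 and -0.16, and Ntng1 at 0.49 and 0.42. The expected values move with the estimate of nuclei. Cluster 8, which held 71.8% of the Plxnb3 signal, was estimated at 336 nuclei (wild-type label) and 138 (knockout label). From genes listed in 1 cluster only these were 274 and 200. Ephb1 was observed at -0.69 and expected at -0.48, and Ntn1 at -1.10 and -0.85. After subtraction 0 members were 2-fold apart in either direction. The same counts were not made over all genes, so none of them is read as particular to the guidance genes.

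Other members lay away from the expected value. Robo3 was observed at 0.60 and expected at -0.02, and Slit2 was observed at -0.49 and expected at 0.12, with the opposite sign. Sema3c was observed at 1.24 and expected at 0.62, Sema3e at 0.71 and 0.18, Efnb1 at 0.62 and 0.10, Sema3a at 0.56 and 0.12, Epha3 at 0.92 and 0.52 and Epha5 at 0.72 and 0.36. The cluster columns pool both libraries, so the level of these genes inside a cluster cannot be compared between the libraries.

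**Figure D4:**
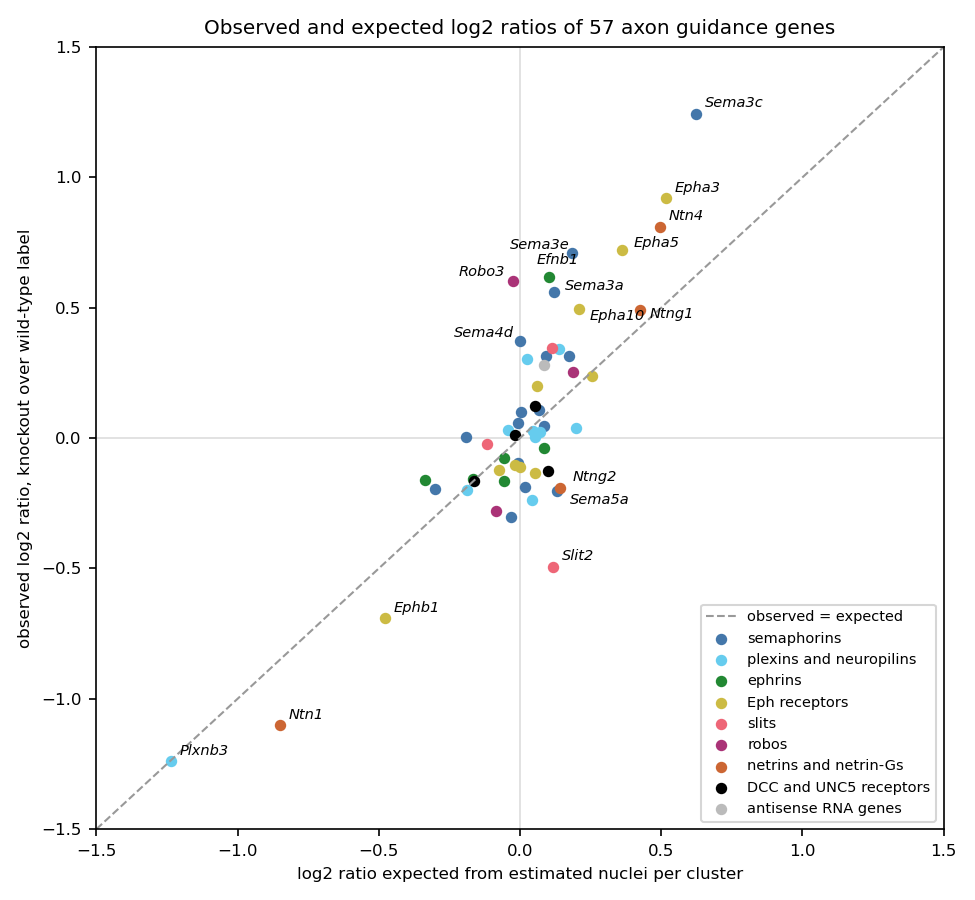
Observed log2 ratio (knockout label over wild-type label, y axis) against the log2 ratio expected from estimated nuclei per cluster (x axis) for 57 guidance genes, coloured by subfamily, with a dashed line where both are equal and names for genes far from 0 or from the line. By the estimate of nuclei plotted, Plxnb3 lies on the line at -1.24, and Robo3 and Slit2 lie away from it, at 0.60 against -0.02 and at -0.49 against 0.12. The expected values move with that estimate.

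Genes that act with these ligands and receptors were counted from lists chosen for their known roles. Of 44 effectors inside the cell 41 passed the floor, 26 higher and 15 lower, with a median log2 ratio of 0.08. Among all genes above the floor 40.8% were higher and 59.2% lower. At least 2-fold lower were 2 of the 41, against 2.37% of all genes, and at least 2-fold higher were 0, against 0.567%. Dock1, a guanine exchange factor for Rac, had levels of 0.513 and 0.206, 2.49-fold lower (2.14 to 2.90), and clusters 8, 14, 18 and 19 held 58.7% of its signal. Srgap1, a GTPase-activating protein of the slit and robo pathway, had levels of 0.750 and 0.361, 2.08-fold lower (1.87 to 2.31). Upward, Mical2, a relative of the plexin effector Mical1, had levels of 1.30 and 2.42 and Dpysl4, a collapsin response mediator, of 0.122 and 0.192.

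Of 30 co-receptors and other surface partners 28 passed the floor, 15 higher and 13 lower, where 40.8% of all genes above the floor were higher. Their median log2 ratio was 0.01, which turned to -0.01 without the floor, and their mean was -0.14. Omg, a myelin-associated inhibitor of axon growth, had levels of 0.407 and 0.0146, 28.0-fold lower (18.7 to 43.8), observed at -4.09 on the log2 scale and expected at -0.44. Rgma, a repulsive ligand of neogenin, had levels of 0.1997 and 0.114, 1.75-fold lower (1.42 to 2.16). Clusters 8, 14, 18 and 19 held 42.9% of the Rgma signal, and its log2 ratio was observed at -0.76 and expected at -0.50. Dscaml1, an adhesion molecule of neural wiring, had levels of 1.46 and 2.31, 1.58-fold higher (1.503 to 1.67), and Flrt3, which binds UNC5 receptors and robos, of 1.06 and 1.34, 1.27-fold higher (1.19 to 1.35).

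The antisense gene Plxna4os3 had levels of 0.349 and 0.425, 1.22-fold higher (1.10 to 1.36), and like Plxna4 was highest in cluster 9, at 1.07. Whether counting used strand is not given in the sources used here, so reads of Plxna4 and its antisense genes may be mixed, which was not tested. Plxnb1 and Unc5b, the 2 members below the floor that are given with values, were named in view of those values.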

How the data were processed

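Libraries of single nuclei from the medial prefrontal cortex used the 10x 3' v3.1 kit, per the labels, with 1 pooled library of 4 male mice per genotype. The authors deposited an averaged, normalized and linear signal per gene for both genotypes and 23 clusters that pool them. Each column sums to 10000 over 31053 genes. The build was mm10, per the submitters' processing notes; the aligner, counting, clustering, filters on nuclei and treatment of doublets were not given in the sources used here. No counts were in the table, so the planned count intervals were replaced by intervals on estimated UMIs.

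Nuclei per column came from the weights that make both genotype columns and the cluster columns sum alike, whole to within 1.8e-07. Values equal to 1 UMI in 1 nucleus (9331, tolerance 0.0001) gave depth and nuclei per cluster and library. These steps were run on simulated data with fewer clusters and the same gene profiles in both libraries, which does not settle their error here. For cluster 4 under the wild-type label the estimate was 185 nuclei, and 294 from genes listed in 1 cluster only. Ratios carry 95% Clopper-Pearson intervals and cluster means exact Poisson intervals. At the estimated depths 3 UMIs are a level of 0.00195 (wild-type label) and 0.00167 (knockout label). Python 3.11.15, numpy 2.4.6, pandas 2.3.3, scipy 1.17.1 and matplotlib 3.10.9 were used. GENCODE M21 gave positions for 73 of 73 members.

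Named are members at least 1.5-fold apart, the 2 of each subfamily with the highest level, Dcc, members at least 4-fold over their median cluster, and the 2 widest partner genes per list and direction; exceptions are given for comparison. Members and lists were chosen with earlier results of these data known. Alternatives covered pseudocount, floor, scaling, threshold, list summary and the expected ratio.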

Additional observations from a re-analysis of the deposited data

How the results depend on the processing

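Of 434 recomputed values 322 stayed close to the reported one, 112 moved and 0 of the members at least 1.5-fold apart changed direction. Among the 57 members above the floor and their 342 alternatives 29 changed sign, in 15 members whose log2 ratio was at most 0.24 from 0. Of these, 6 changed sign only when the expected ratio was subtracted (Dcc, Efna2, Efnb3, Epha6, Sema3d and Sema6c). The other 9 (Efna5, Nrp1, Nrp2, Plxna1, Plxna4, Plxnc1, Sema5b, Slit3 and Unc5c) were at most 0.04 from 0 and changed sign with a scaling. The count at least 2-fold higher (1) and the count at least 2-fold lower (2) were 0 and 0 with a pseudocount of 0.1, 0 and 0 with a pseudocount of 1, and 0 and 0 after either version of the expected ratio was subtracted. With a floor 4 times as high the count lower was 0, with 37 members left, and with a 1.5-fold threshold the count higher was 7. The pseudocounts shrink low genes by construction; for subtraction the cause was not tested. Subfamily medians that changed sign were those of plexins and neuropilins (mean -0.09), ephrins (mean 0.004), Eph receptors (-0.11 without the floor), slits (0.04 scaled to the median), netrins (-0.19 without the floor) and DCC and UNC5 receptors (0.004 scaled to the median). Setting the median of all genes to 0 shifts every log2 ratio by 0.06. No paired analysis was possible because each genotype has 1 library and no result comes from a test. Depth limits the 16 members below the floor and the clusters of 52, 37 and 20 nuclei, where intervals are wide.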

Other observations

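Profiles of related genes across the 23 clusters, given as descriptions over clusters that share the same libraries, ran from alike to unrelated. Spearman's rho was 0.63 for Slit2 and Slit3, 0.54 for Robo1 and Robo2 and 0.40 for Epha5 and Epha6, against 0.24 for Ntng1 and Ntng2, 0.09 for Plxna2 and Plxna4 and 0.01 for Sema3a and Sema3e. In cluster 20, where Ntng2 had its peak of 5.56, Ntng1 was at 0.371, and in cluster 17, where Ntng1 had its peak of 31.2, Ntng2 was at 0.102.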
